A study of Mus musculus with 2 samples.

Results

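Cxcl9 macrophages of mouse liver tumours were described here as 137 of the 16305 barcodes kept from 2 droplet single-cell RNA libraries, 37 of 9470 in the inhibitor library and 100 of 6835 in the control library. They were selected on measured counts. A barcode needed at least 2 unique molecular identifiers (UMIs, tags that count single captured mRNA molecules) of Cxcl9 and at least 2 over Csf1r, Ms4a7, C1qa, C1qb and C1qc together. It could hold at most 1 UMI over the Kupffer cell genes Clec4f, Vsig4, Timd4 and Cd5l, at most 1 of Fscn1, and none of the Cd3 chains, Cd79a, Xcr1 or Clec9a. Kept barcodes had at least 300 detected genes and at most 25% of their UMIs from mitochondrial genes. The level of these genes in the selected cells is therefore a description of the choice and not a result.

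The cells came from the tumour region of livers of C57BL/6 mice that were fed the diet labelled CD-HFD for 15 months and were 17 months old. The inhibitor mice received a FABP5 inhibitor from month 13. FABP5 is a carrier protein that moves fatty acids within the cell. The control mice had the same strain, diet and age, and their own treatment, like the number of mice in each library, was not given in the sources used here. Tissue was digested with collagenase and passed through an Annexin V kit, which binds dying cells, with the sequenced fraction not stated. There was 1 library per group, so no difference below has a replicate check and none was tested. Intervals are exact 95% intervals that cover counting error only. The libraries held 10649 barcodes and 68074929 UMIs with inhibitor, and 9493 barcodes and 53378693 UMIs in control. They shared 29 barcode sequences, of which 0 belonged to selected cells of the inhibitor library and 1 to a selected cell of the control library.

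CXCL9 and CXCL10 are chemokines that bind CXCR3, the receptor by which activated T cells and NK cells find inflamed tissue. Interferon gamma, made by those lymphocytes, induces CXCL9 and acts through DNA elements called GAS. Type I interferons act mainly through another element, the ISRE, in front of antiviral genes such as Ifit3 and Isg15, and CXCL10 is known to respond to both. In tumours, macrophages and dendritic cells are the known main sources of CXCL9. C1q, the recognition part of the first complement complex, marks mature tissue macrophages, while incoming monocytes lack it.

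The promoters of 4 genes that the comparisons below turn on are shown to set both elements side by side. They are RefSeq sequences on GRCm38.p6, from 250 bases before to 50 after the start of the gene and written 5′ to 3′ on its strand. The build behind the deposited counts could not be settled (the labels name mm9), and no count was placed by these coordinates. Capitals mark matches to GAS, searched as TTCNNNGAA, or to ISRE, searched as GAAA, any 2 bases and GAAA again, on both strands, and matches of the 2 motifs were allowed to overlap. Cxcl9 lies at chr5:92328030-92328329 on the minus strand, Cxcl10 at chr5:92348840-92349139 on the minus strand, Gbp5 at chr3:142496684-142496983 on the plus strand and Ifit3 at chr19:34583279-34583578 on the plus strand.
Cxcl9: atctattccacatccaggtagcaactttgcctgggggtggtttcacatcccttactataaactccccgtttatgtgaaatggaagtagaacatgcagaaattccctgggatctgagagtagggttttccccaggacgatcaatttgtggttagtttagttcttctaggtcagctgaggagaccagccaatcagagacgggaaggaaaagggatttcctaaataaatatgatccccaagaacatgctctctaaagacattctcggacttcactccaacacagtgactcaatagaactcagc
Cxcl10: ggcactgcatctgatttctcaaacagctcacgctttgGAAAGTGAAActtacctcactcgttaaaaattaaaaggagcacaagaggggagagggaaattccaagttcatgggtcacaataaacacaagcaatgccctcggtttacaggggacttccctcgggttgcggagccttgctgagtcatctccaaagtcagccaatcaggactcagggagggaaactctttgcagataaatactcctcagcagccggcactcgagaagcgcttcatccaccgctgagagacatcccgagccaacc
Gbp5: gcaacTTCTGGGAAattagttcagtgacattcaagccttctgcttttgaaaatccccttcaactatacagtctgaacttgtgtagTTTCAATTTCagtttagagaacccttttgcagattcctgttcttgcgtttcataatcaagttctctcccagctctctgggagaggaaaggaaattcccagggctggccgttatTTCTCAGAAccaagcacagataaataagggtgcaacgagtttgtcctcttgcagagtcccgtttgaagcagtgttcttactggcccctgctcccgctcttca
Ifit3: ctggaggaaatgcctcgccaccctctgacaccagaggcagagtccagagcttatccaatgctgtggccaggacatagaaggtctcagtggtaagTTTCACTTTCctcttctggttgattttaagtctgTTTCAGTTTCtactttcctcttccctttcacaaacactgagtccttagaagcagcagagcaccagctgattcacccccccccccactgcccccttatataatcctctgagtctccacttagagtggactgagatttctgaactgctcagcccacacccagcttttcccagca
The Cxcl10 window holds 1 ISRE match, which starts at -213 from the gene start, and the Ifit3 window holds ISRE matches at -156 and -122. In the Gbp5 window there are GAS matches at -245 and -52 and an ISRE match at -165. Neither spelling occurs in the Cxcl9 window, which says only that these letters are not there. Over all 27025 genes of the promoter table, 9.55% hold a GAS match and 3.99% an ISRE match. Of the interferon gamma response list, 16 of 30 genes had a promoter in the table, and 9 of them (56.2%) held GAS and 12 (75%) held ISRE. Of the type I interferon list, 21 of 31 genes had one, and 2 (9.52%) held GAS and 13 (61.9%) ISRE. A match is a description of the sequence and not a binding site.

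The name macrophage was checked against the defining genes, and the 2 libraries differed in it. At least 2 C1q UMIs were found in 6 of 37 selected cells with inhibitor (16.2%, interval 6.19 to 32.0) and in 71 of 100 in control (71.0%, interval 61.1 to 79.6). No C1q UMI at all was seen in 29 of 37 cells and 25 of 100 cells. Ms4a7, a membrane protein of tissue macrophages, was absent from 31 of 37 and 47 of 100. Csf1r, the receptor for the macrophage growth factor CSF1, was absent from 2 of 37 and 11 of 100. Most selected cells of the inhibitor library thus passed on Csf1r and lacked C1q. Lyz2, the lysozyme of monocytes and macrophages, had a median of 173 UMIs per cell (range 1 to 492) with inhibitor and 55 (range 0 to 373) in control. The monocyte list, which includes Ly6c2, Ccr2, Chil3 and Plac8, made up a median of 1.48% of a cell's UMIs with inhibitor and 0.541% in control. For the 29 control cells with 0 or 1 C1q UMI that median was 0.955%, against 0.417% for the 71 with more. By these values the cells of the inhibitor library are better called Csf1r-positive, Cxcl9-positive myeloid cells with monocyte genes, and those of the control library C1q macrophages for the larger part.

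**Figure D1:**
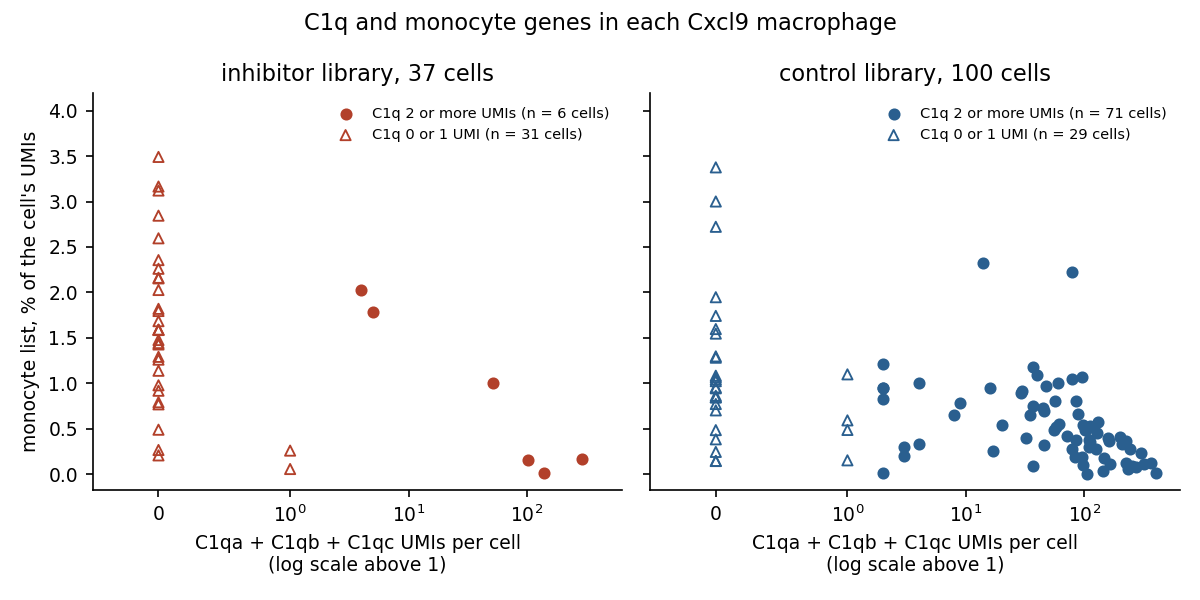
Each point is 1 selected cell, placed by its summed C1qa, C1qb and C1qc UMIs (log scale above 1) and by the share of its UMIs from the monocyte list. Most of the 37 inhibitor cells stand at 0 C1q UMIs with monocyte shares up to 3.49%, while 71 of the 100 control cells stand at 2 or more C1q UMIs.

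Markers of other classes were mostly low in the selected cells. Of 8 Kupffer markers, 5 were at 0 in each library, and Xcr1, Clec9a and Itgae of type 1 dendritic cells were at 0 in both (the rule set some of these). Hepatocyte markers, 5 genes including Alb, summed to 2298 CPM (UMIs per 1000000 UMIs of the population) with inhibitor and 1474 CPM in control, with per-cell medians of 0 and 326 CPM and ranges of 0 to 17112 and 0 to 15265 CPM. Only 13 of 37 inhibitor cells held any such UMI, and 2 of them held 582 and 383 of the 988, while 95 of 100 control cells held some. At least 20 UMIs of another class's markers, those of monocytes not counted, were found in 4 of 37 inhibitor cells and 12 of 100 control cells. Hepatocyte markers reached that number in 2 and 9 of them. The 2 inhibitor cells with hepatocyte markers had 34012 and 47491 UMIs, against a median of 9568 over all 37. A simulation-based doublet search marked 2 selected cells in each library. Values without the 4 and 12 barcodes are given below for list medians between the libraries and for some of the genes that they moved.

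Fewer cells qualified in the inhibitor library. They were 0.391% of kept barcodes (interval 0.275 to 0.538) with inhibitor and 1.46% (1.19 to 1.78) in control, a log2 ratio of -1.90 (-2.49 to -1.35). The gap was wide among cells with C1q and small among those without. Those with at least 2 C1q UMIs numbered 6 with inhibitor and 71 in control, a log2 ratio of shares of -4.04 (-5.53 to -2.84). Those with 0 or 1 C1q UMI numbered 31 and 29, with a log2 ratio of -0.37 whose interval, -1.15 to 0.41, includes 0. C1q macrophages without any Cxcl9 UMI, defined by the same limits, numbered 113 with inhibitor and 497 in control, a log2 ratio of -2.61 (-2.92 to -2.31). All cells that met the rule apart from Cxcl9 numbered 3274 with inhibitor and 1265 in control. A classical monocyte gate, drawn from all kept barcodes by Ly6c2 and the lack of C1q and Cxcl9, passed 3158 and 361. Its overlap with the 3274 and 1265 cells was not counted. Of those 3274 and 1265 cells, 1.13% and 7.91% were selected. In the classical monocyte gate, Siglech, a plasmacytoid dendritic cell marker, was found in 1.23% of the 3158 inhibitor cells and 23.5% of the 361 control cells. The gate thus held unlike mixtures in the 2 libraries. Shares of all barcodes depend on every other class in the library, and how far the larger number of monocytes moved them was not tested.

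The cells just inside and outside the limit on Cxcl9 show how the choice was made. With exactly 2 Cxcl9 UMIs there were 10 of the 37 inhibitor cells and 18 of the 100 control cells. With exactly 1, which was just too few, there were 25 and 31 cells that met all other limits, and 0 UMIs were found in 3212 and 1134. Of 89 inhibitor barcodes and 205 control barcodes with at least 2 Cxcl9 UMIs, the requirement for Csf1r, Ms4a7 and C1q removed 30 and 49, that on dendritic Xcr1 and Clec9a removed 2 and 21, and that on Kupffer genes removed 8 and 4. Every kept barcode deep enough was also thinned to 2000 UMIs and the whole rule, exclusions included, was applied anew. Then 4 barcodes passed with inhibitor and 57 in control, so part of the selection depends on depth. At least 1 Cxcl9 UMI was still found in 26 of 37 and 80 of 96 thinned selected cells. Which limit of the rule the others failed was not tested. Before thinning, the selected cells had a median of 4 Csf1r UMIs in each library, and of 0 C1q UMIs with inhibitor and 37 in control. Median depth of the selected cells was 9568 UMIs with inhibitor and 9515 in control.

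The selected cells were few and held much of the Cxcl9. They carried 1094 of the 1895 Cxcl9 UMIs of all kept barcodes with inhibitor (57.7%, interval 55.5 to 60.0) and 2778 of 5967 in control (46.6%, 45.3 to 47.8). These shares partly follow from the rule, since each cell had to hold Cxcl9. A gate for type 1 dendritic cells, which present antigen to CD8 T cells, carried 6.54% with inhibitor and 16.6% in control. Siglech was found in 28.7% and 39.7% of the cells in that gate, so it was mixed too. Kupffer cells, the resident liver macrophages, carried 6.70% and 0.218%. An endothelial gate, with only 9 cells with inhibitor and 65 in control, held 0 of the 1895 and 3.55% of the 5967. Cxcl10, which was not in the rule, was spread more widely. The selected cells held 1301 of 5076 Cxcl10 UMIs (25.6%) with inhibitor and 3346 of 10269 (32.6%) in control. The classical monocyte gate, mixed as given above, held 24.9% and 5.18%, Kupffer cells 10.5% and 0.234%, and T cells 10.5% and 19.3%.

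Single cells differed widely in how much of each chemokine they held. Cxcl9 ranged from 2 to 361 UMIs with a median of 8 in the inhibitor cells, and from 2 to 190 with a median of 11 in the control cells. One inhibitor cell held 33.0% of that group's Cxcl9 UMIs and 5 cells held 67.6%, against 6.84% and 26.5% for the highest and the 5 highest of the control cells. Cxcl10 ranged from 0 to 277 UMIs (median 0) with inhibitor and from 0 to 509 (median 2) in control, and 19 of 37 and 44 of 100 cells held none. Both groups thus mixed cells with much Cxcl10 and cells with none, and the groups overlapped over most of their range. Across cells, the share of UMIs from Cxcl9 and that from Cxcl10 had a Spearman correlation of 0.50 over 37 inhibitor cells and 0.28 over 100 control cells, as a description of cells that share a library.

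**Figure D2:**
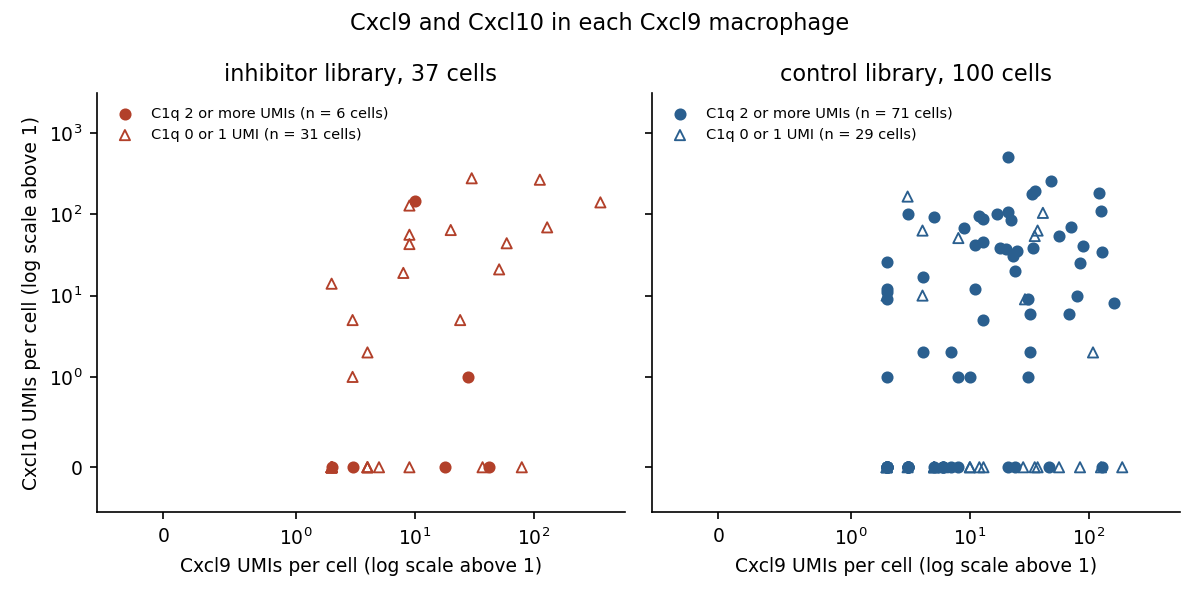
Each point is 1 selected cell with its Cxcl9 and Cxcl10 UMIs (log scales above 1). Cells without Cxcl10, 19 of 37 with inhibitor and 44 of 100 in control, line the bottom of each panel, at 2 to 79 Cxcl9 UMIs with inhibitor and 2 to 190 in control.

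After thinning to 2000 UMIs per cell, Cxcl10 was still found in 12 of 37 inhibitor cells (32.4%; 48.6% before thinning) and in 51 of 96 control cells (53.1%; 56.0% before), with 4 shallower control cells left out. B cells, which are not known as a main source of CXCL10, gave 0.935% and 0.739% after thinning, at median depths of 2790 and 3202 UMIs, and the part of free RNA in these shares was not tested. C1q macrophages without Cxcl9 gave 2.88% with inhibitor and 5.72% in control, and T cells 2.83% and 8.98%. Ifit3, a type I interferon gene, was found in 2 of 37 thinned inhibitor cells (5.41%), under the limit of 8.11% that a count of 0 allows there, and in 51 of 96 control cells (53.1%). In C1q macrophages without Cxcl9 it was found in 4.81% and 12.4%, and in T cells in 3.25% and 17.2%. Gbp2, a guanylate-binding protein that attacks the vacuoles of intracellular microbes and is induced by interferon gamma, was found in 35.1% of thinned inhibitor cells and 30.2% of thinned control cells. For Gbp2, C1q macrophages without Cxcl9 gave 5.77% and 5.49%, and T cells 6.62% and 9.69%.

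Set against C1q macrophages without Cxcl9 in the same library, the selected cells held more RNA of both interferon lists. A gene was counted as higher or lower at 2-fold or more with at least 30 UMIs over both populations. Of the interferon gamma list, 14 of 18 measured genes were higher with inhibitor (median log2 ratio 2.12), where 7.27% of the 5224 genes measured were, and 19 of 23 in control (median 1.87), where 5.04% of 8448 genes were. Of the type I list, 15 of 23 were higher with inhibitor (median 1.69) and 28 of 30 in control (median 2.19). Most selected inhibitor cells lacked C1q, and in the 6 with it the type I median was 0.60, with the list at 4270 CPM against 3230 CPM in C1q macrophages without Cxcl9. None of either list was lower. The median over all measured genes was -0.02 with inhibitor and -0.13 in control. These patterns were known when the lists were chosen and are no independent support for the cells' name.

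Among ligands and receptors, Cxcl10 stood at 3026 CPM in selected cells and 38.8 CPM in C1q macrophages without Cxcl9 with inhibitor (log2 ratio 6.28), and at 3405 and 228 CPM in control (3.90). The pooled levels of selected cells were thus close, but not within the C1q classes. Cells with 0 or 1 C1q UMI held 3242 CPM with inhibitor and 2018 CPM in control, and cells with at least 2 held 1986 and 3912 CPM, where 146 of the 147 inhibitor UMIs came from 1 cell. None of 6 interferon genes listed, Ifng and Ifnb1 among them, reached 30 UMIs. Of 12 receptor and signalling genes, 2 were higher with inhibitor and 1 in control, with medians of 0.29 and 0.34. That is near the share over all measured genes, 7.27% and 5.04%, for so short a list. Ifngr1, a chain of the interferon gamma receptor, had log2 ratios of -0.33 and -0.49.

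Among transcription factors and feedback genes of the pathway, Irf1, which drives many interferon gamma genes, stood at 263 CPM in selected cells and 65.6 CPM in those without Cxcl9 with inhibitor (log2 ratio 2.00), and at 131 and 55.9 CPM in control (1.23). Socs1, which inhibits the receptor kinases, had log2 ratios of 3.37 and 3.19. Irf8 (0.50 and 0.10) and Ciita (0.53 and 0.08), the master regulator of MHC class II, stayed under the 2-fold limit. Irf7, the amplifier of type I interferon, had log2 ratios of 1.10 and 2.42.

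Effector genes had wide gaps. Gbp5, which acts with Gbp2 in inflammasome assembly and whose promoter is shown above, stood at 154 CPM in selected cells against 3.70 CPM in those without Cxcl9 with inhibitor (log2 ratio 5.38), and at 117 against 6.31 CPM in control (4.21). Gbp2 stood at 370 against 43.4 CPM (3.09; 3.74 without the barcodes rich in markers of another class) and 279 against 27.6 CPM (3.34). Iigp1, an immunity-related GTPase, had log2 ratios of 3.62 and 4.44. On the type I side, Isg15, a ubiquitin-like modifier, stood at 535 against 165 CPM with inhibitor (1.69) and 1957 against 202 CPM in control (3.28). Ifit2 had log2 ratios of 4.44 and 3.62, Rsad2, the antiviral enzyme viperin, 3.28 and 3.68, and Ifi205, a DNA-sensor family member, 4.25 and 4.48. Ifi27l2a, also on the type I list, differed by -0.03 and 0.55 only.

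**Figure D3:**
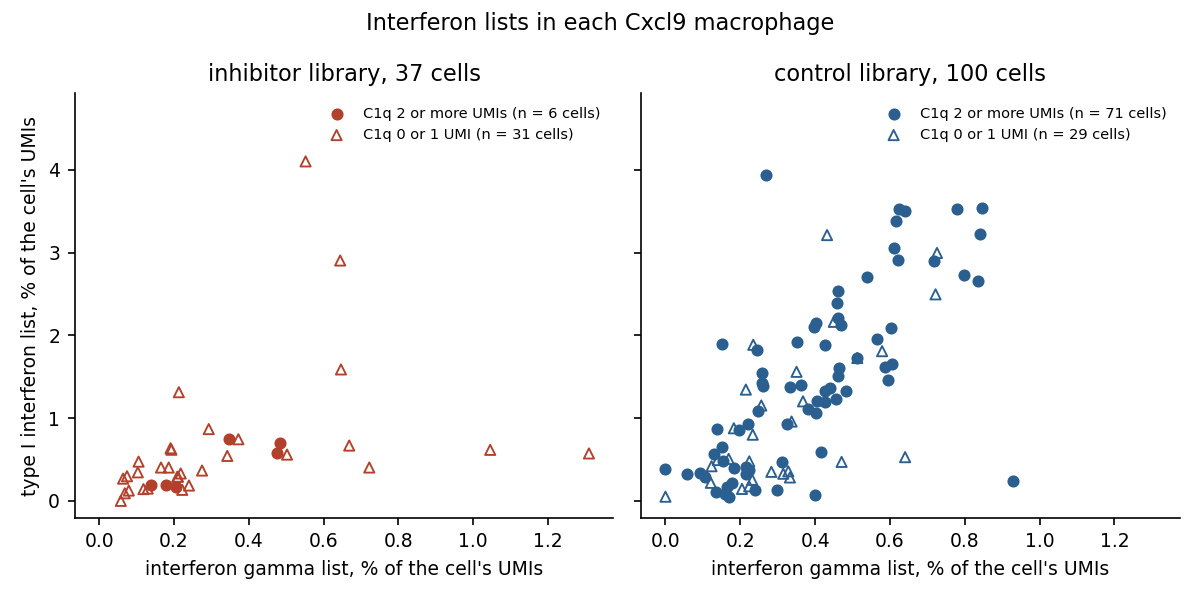
Each point is 1 selected cell with the share of its UMIs from the interferon gamma list and from the type I list. The type I share has a median of 0.403% with inhibitor and 1.21% in control, and the highest cells reach 4.10% and 3.94%. The interferon gamma share has a median of 0.213% with inhibitor and 0.344% in control.

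Antigen presentation differed by class. Of 16 measured MHC class I genes 7 were higher with inhibitor (median 0.91), and 5 of 18 in control (median 0.82). The share over all measured genes was 7.27% and 5.04%. The peptide transporter Tap1 had log2 ratios of 1.62 and 1.06. Of the MHC class II list, 0 of 7 and 0 of 10 genes were higher or lower, with medians of -0.38 and 0.01. H2-Aa, a class II chain, stood at 3970 CPM against 5160 CPM with inhibitor and at 10057 against 9272 CPM in control. Cd40, the receptor through which helper T cells license antigen-presenting cells, had log2 ratios of 2.03 and 2.74. Cd274, which encodes PD-L1, had log2 ratios of 1.06 and 1.24, but -1.69 in the 6 inhibitor cells with C1q, which held 1 UMI of it. Cd69, an early activation marker named by its size, had 4.65 and 3.03. Acod1, the enzyme that makes itaconate, had 5.33 and 2.68 (4.83 in control without the barcodes rich in markers of another class), with only 3 UMIs in the 113 inhibitor cells without Cxcl9. Ass1, which regenerates arginine, had 1.72 and 2.37.

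Inflammatory and cell death genes were also on the higher side, where 7.27% of all measured genes were higher with inhibitor and 5.04% in control. Of 16 NF-kB and inflammatory genes, 6 were higher with inhibitor and 7 in control (median 0.75 in each), among them Icam1, an adhesion ligand of T cells, with log2 ratios of 1.23 and 1.49, and Casp4, the sensor of cytosolic lipopolysaccharide, with 1.82 and 2.25. Of the cell death and nucleic acid sensor list, 5 of 11 were higher with inhibitor (median 0.80) and 11 of 14 in control (median 1.32), and none of either list was lower. Parp14, an ADP-ribosyltransferase, had 1.35 and 1.76.

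Other chemokines did not go one way. With inhibitor 2 of 17 were higher and 0 lower, and in control 6 of 20 were higher and 5 lower. Over all measured genes 7.27% were higher and 4.38% lower with inhibitor, and 5.04% and 8.45% in control. Ccl12, a ligand of the monocyte receptor CCR2, had log2 ratios of 0.26 with inhibitor and 3.98 in control, and Ccl5, which attracts T cells, had 0.75 and 2.20. Ccl4, which attracts T cells and monocytes, had 1.65 and 1.06. Among cytokines, Il1rn, the interleukin 1 receptor antagonist, had 1.26 and 1.82. Whether the libraries differ in these ratios was not tested.

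Genes of lipid-associated macrophages, which take up and store lipid, were on the lower side. In the inhibitor library 8 of 18 were lower and 0 higher (median -0.86), where 4.38% of all measured genes were lower. Control had 9 of 18 lower and 1 higher (median -0.96), with 8.45% of genes lower. Fabp5, the target of the inhibitor, stood at 184 CPM in selected cells and 825 CPM in C1q macrophages without Cxcl9 with inhibitor (log2 ratio -2.17), and at 125 and 665 CPM in control (-2.41). Gpnmb, a lysosomal glycoprotein, had no UMI against 113 UMIs with inhibitor, which is at least 15.0-fold lower by a floor of 3 UMIs over the group, and stood at 4.07 against 145 CPM in control (-5.16). Lpl, which releases fatty acids from lipoproteins, had log2 ratios of -1.93 and -1.99, the lipid receptor gene Trem2 -1.73 and -1.20, the protease gene Ctsd -1.57 and -1.55, and the iron exporter gene Slc40a1 -3.46 and -3.71. Most selected inhibitor cells lacked C1q while all cells they were set against had it. In the 6 selected inhibitor cells with C1q, Ctsd had 0.18. In the 31 with 0 or 1 C1q UMI, set against cells of that kind without Cxcl9, Fabp5 had 0.98 (interval 0.58 to 1.35), so its direction did not hold within each C1q class of the inhibitor library. Slc40a1 had 1.11 there from 2 UMIs, with an interval of -1.96 to 3.02 that includes 0.

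Ranked by size in both libraries together, the highest genes outside the rule also included Sparc, Hspb1, Clu and Cp. Sparc was found in 5.41% of selected inhibitor cells and 2% of selected control cells, Hspb1 in 5.41% and 3%, Clu in 13.5% and 29.0%, and Cp in 5.41% and 17.0%. Their sums thus rest on a minority of cells, and without the barcodes rich in markers of another class Clu had 0.95 and Cp 0.034 in control. The lowest genes included S100a9, S100a8, Vcam1, Gdf15, Cd63 and Cd93 beside those named above, with log2 ratios between -2.44 and -1.20 in both libraries. Neutrophil markers, S100a8 and S100a9 among them, had a per-cell median of 0 CPM in the C1q macrophages without Cxcl9 and highest cells of 109430 and 128664 CPM, so those sums too rest on few cells.

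Selected cells with 0 or 1 C1q UMI, 31 with inhibitor and 29 in control, were also set against the 3099 and 637 cells that met the rule's other limits with 0 Cxcl9 UMIs and 0 or 1 C1q UMI. Here both sides are monocyte-like in C1q, but the cells without Cxcl9 were unlike mixtures in the 2 libraries. Among them, Ly6c2 was found in 84.7% with inhibitor and 48.7% in control, and Vcan, also of monocytes, in 75.5% and 13.8%. Cd209a, a type 2 dendritic cell marker, was found in 2.84% and 12.1%. Their MHC class II genes summed to 5453 and 27483 CPM, so the ratios below start from unlike levels. Of the interferon gamma list, 18 of 21 genes were higher with inhibitor (median 2.53), where 15.3% of the 9459 measured genes were, and 13 of 19 in control (median 1.39), where 4.64% of 8162 were. Of the type I list, 20 of 29 and 21 of 30 were higher (medians 1.49 and 1.61). MHC class II genes were higher in 8 of 10 with inhibitor (median 2.19) and in 0 of 10 in control (median 0.59). A few cells carried much of the inhibitor sum: the class II share had a median of 0.878% and a highest value of 10.5%, and 5 of the 31 cells held 54.0% of the summed shares. The 3 highest of them held 16, 10 and 1 Lyz2 UMIs, and the next held 37 UMIs of plasmacytoid dendritic cell markers. H2-Aa stood at 3295 against 528 CPM with inhibitor (log2 ratio 2.64) and at 7684 against 4156 CPM in control (0.89). The monocyte list had medians of -0.86 and -0.30. Fn1 and F13a1, genes of classical monocytes, had log2 ratios of -2.06 and -2.06 with inhibitor and -1.42 and -2.03 in control. Cd274 stood at 107 against 7.61 CPM with inhibitor (3.81) and 53.2 against 27.9 CPM in control (0.93).

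Between the libraries, selected cells were close in interferon gamma genes and differed in type I genes. Of the type I list, 19 of 29 genes were at least 2-fold lower with inhibitor and 0 higher (median log2 ratio of inhibitor over control -1.41), where 6.25% of 4849 measured genes were lower and 11.9% higher. Of the interferon gamma list 2 of 22 were higher and 1 lower (median -0.06). The median of all measured genes was 0.22. Summed over the list, type I genes stood at 5484 CPM (interval 5265 to 5710) with inhibitor and 13440 CPM (13212 to 13671) in control, and interferon gamma genes at 3228 CPM (3061 to 3403) and 3783 CPM (3663 to 3907). C1q macrophages without Cxcl9 held 3230 and 3639 CPM of type I genes, with a list median of -0.46. T cells held 1266 and 3145 CPM, so a gap in this direction was not confined to the selected cells.

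The type I genes fell into those with wide gaps and those with small ones. Ifit3 had 0 to 15 UMIs per cell and was found in 6 of 37 inhibitor cells, and had 0 to 102 UMIs in control cells, 67 of 100 with any. Summed, it stood at 76.8 CPM with inhibitor and 958 CPM in control (log2 ratio -3.64, interval -4.19 to -3.14). Ifit1 stood at 123 and 788 CPM (-2.68), and 60.4% of its inhibitor UMIs came from 1 cell (-1.80 without the barcodes rich in markers of another class). Isg15 had a median of 2 UMIs per cell (0 to 52) with inhibitor and 11 (0 to 113) in control, and stood at 535 and 1957 CPM (-1.87). Irf7 stood at 416 and 1055 CPM (-1.34), Rsad2 at 251 and 598 CPM (-1.25; -0.85 without those barcodes), Zbp1 at 295 and 412 CPM (-0.48) and Ifi205 at 123 and 157 CPM (-0.35). The per-cell ranges of the 2 groups overlapped for Isg15 and Ifit3 alike.

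In summed UMIs, interferon gamma genes and the CXCR3 ligand differed less. Cxcl10 stood at 3026 CPM with inhibitor and 3405 CPM in control (log2 ratio -0.17; 0.21 without the barcodes rich in markers of another class), Gbp2 at 370 and 279 CPM (0.41), Gbp5 at 154 and 117 CPM (0.39) and Socs1 at 95.4 and 87.5 CPM (0.12). Irf1 was 2-fold higher at 263 and 131 CPM (1.00). In C1q macrophages without Cxcl9 the log2 ratio of Cxcl10 was -2.55. Cd274 stood at 90.7 and 45.8 CPM (0.99, interval 0.33 to 1.64) and was found in 15 of 37 and 29 of 100 cells. Cells with 0 or 1 C1q UMI held 38 of its 39 UMIs with inhibitor and 14 of 45 in control. In cells with at least 2 C1q UMIs it was not higher, with 1 of 74003 UMIs with inhibitor and 31 of 719596 in control.

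The C1q makeup of the groups moved with these values. Among cells with 0 or 1 C1q UMI, 7 of 24 type I genes were lower and 0 higher (median -0.62), where 3.64% of 2745 genes were lower, and the interferon gamma list had 5 of 17 higher and 1 lower (median -0.02), where 13.6% were higher. There Ifit3 had a log2 ratio of -2.49, Ifit1 -1.71, Isg15 -0.99, Rsad2 -0.05 and Cxcl10 0.68. Among cells with at least 2 C1q UMIs, only 6 with inhibitor, the type I median was -2.16 and Ifit3 had no UMI against 804. Without the barcodes rich in markers of another class, the medians were -1.21 for type I and -0.02 for interferon gamma.

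**Figure D4:**
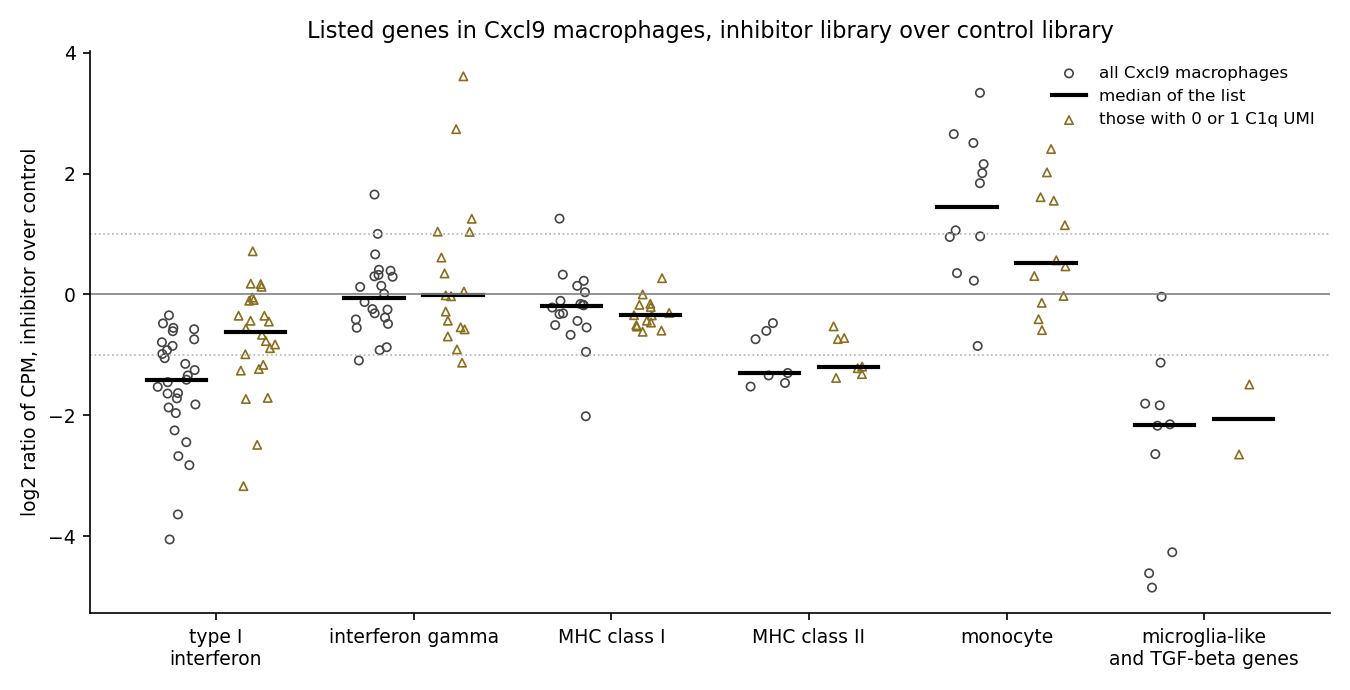
Each point is the log2 ratio of CPM, inhibitor over control, of 1 listed gene in all selected cells (circles) or in those with 0 or 1 C1q UMI (triangles), with the list's median as a bar and dotted lines at 2-fold. The type I medians are -1.41 and -0.62, and the interferon gamma medians -0.06 and -0.02.

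Macrophage and monocyte identity genes differed in both directions. Over all measured genes, 11.9% were higher with inhibitor and 6.25% lower, and 13.6% and 3.64% among cells with 0 or 1 C1q UMI. MHC class II genes were lower in 4 of 7 with inhibitor (median -1.30), and in 4 of 7 among cells with 0 or 1 C1q UMI (median -1.20). As a share of a cell's UMIs the class II list had a median of 0.954% with inhibitor and 6.33% in control. Genes known from microglia and from TGF-beta signalling, a list that an earlier analysis of these libraries had pointed to, were lower in 9 of 10 (median -2.16; -0.65 among cells with at least 2 C1q UMIs), with Tgfbr1, a TGF-beta receptor gene, at 41.9 and 262 CPM (-2.64). Tmem119 and Pmepa1 had 1 inhibitor UMI each, with log2 ratios of -4.61 (interval -9.94 to -2.08) and -4.85 (-10.18 to -2.32). Axl, a receptor for dying cells that interferons induce, stood at 102 and 360 CPM (-1.82). Monocyte genes were higher in 7 of 12 (median 1.45; 1.56 without the barcodes rich in markers of another class), with Chil3, a secreted lectin, at 907 and 204 CPM (2.16), F13a1, for a subunit of clotting factor XIII, at 247 and 24.4 CPM (3.34) and Plac8 at 3986 and 1912 CPM (1.06). Among cells with 0 or 1 C1q UMI, 5 of 12 were higher (median 0.51) and Plac8 had -0.03, and among those with at least 2 the median was 0.51 and Chil3 had -0.081. The monocyte list was also higher with inhibitor outside the selected cells, at 9497 and 4153 CPM in C1q macrophages without Cxcl9, 19737 and 11035 CPM in cells without Cxcl9 and with 0 or 1 C1q UMI, and 1262 and 467 CPM in Kupffer cells. Chil3 stood at 47.5 and 1.71 CPM in T cells and 60.6 and 0.344 CPM in B cells. F13a1 stood at 20.5 and 0.201 CPM in T cells and 34.9 and 0.344 CPM in B cells. Ly6c2 in B cells went the other way, at 128 and 174 CPM. The part of free RNA in these gaps was not tested.

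Chemokines other than the CXCR3 ligands split, with 5 of 17 higher and 4 lower, where 11.9% of all measured genes were higher and 6.25% lower. Ccl5 stood at 188 and 1575 CPM (log2 ratio -3.06; -2.54 with 0 or 1 C1q UMI) and Ccl12 at 72.1 and 711 CPM (-3.30). All 129 Ccl8 UMIs of the selected inhibitor cells came from 1 cell, and control cells held 0. Cxcl16, whose receptor CXCR6 sits on resident T cells, stood at 254 and 761 CPM (-1.59). Cxcl2, which attracts neutrophils, stood at 507 and 76.3 CPM (2.73) and Ccl2, which attracts monocytes, at 616 and 220 CPM (1.49). Ass1 stood at 109 and 414 CPM (-1.92). Of the NF-kB and inflammatory list 5 of 16 were higher and 0 lower (median 0.51), and of the cell death and nucleic acid sensor list 5 of 11 were lower and 0 higher (median -0.85), with Parp14 at 170 and 362 CPM (-1.09) and Casp4 at 105 and 96.7 CPM (0.11).

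By size alone, the 12 genes highest with inhibitor were led by hepatocyte genes, such as Cyp2e1, Fabp1 and Apoa2, and 1 cell held between 54.5% and 98.2% of the UMIs of each. The 12 lowest included Ifit3, Ifit3b, Ccl12, Gdf3, Pmepa1, Ifit1, Tmem119, Slamf9, Cpd, Tgfbr1 and Oasl1. Without the 4 and 12 barcodes rich in markers of another class, an order chosen after the values had been seen, the highest genes began with Cxcl2 at 656 and 65.5 CPM (log2 ratio 3.32), Id3, Malt1 and Ifitm2 at 1480 and 294 CPM (2.33). Hmox1, the haem-degrading enzyme, and Tnip3, an NF-kB inhibitor, followed at 2.35 and 2.42. Apoe, the apolipoprotein of macrophages and hepatocytes, then joined the lowest at 2248 and 15586 CPM (-2.79; -1.70 in all selected cells).

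Grouped by Cxcl9 count, both interferon lists stood higher in cells with more Cxcl9, which the choice of cells by Cxcl9 partly sets. For tiers of 0, 1, 2 to 4, 5 to 19, and 20 or more Cxcl9 UMIs, type I genes summed to 3351, 3508, 4051, 5741 and 6989 CPM with inhibitor and to 3844, 5285, 7549, 10289 and 19141 CPM in control. Interferon gamma genes summed to 795, 1197, 1948, 3686 and 4462 CPM with inhibitor and to 1250, 1995, 2428, 3708 and 4741 CPM in control. The highest 3 tiers, which are the selected cells, held 17, 8 and 12 cells with inhibitor and 31, 28 and 41 in control. At 20 or more UMIs and 0 or 1 C1q UMI, where there were 10 and 12 cells, type I genes summed to 8078 and 14610 CPM and interferon gamma genes to 5074 and 3617 CPM. Among control cells of that C1q class the type I sum was not in order of Cxcl9, with 7591 CPM at 2 to 4 UMIs and 5706 CPM at 5 to 19. Across single cells the 2 lists moved together, with a Spearman correlation of 0.69 over 37 inhibitor cells and 0.71 over 100 control cells.

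**Figure D5:**
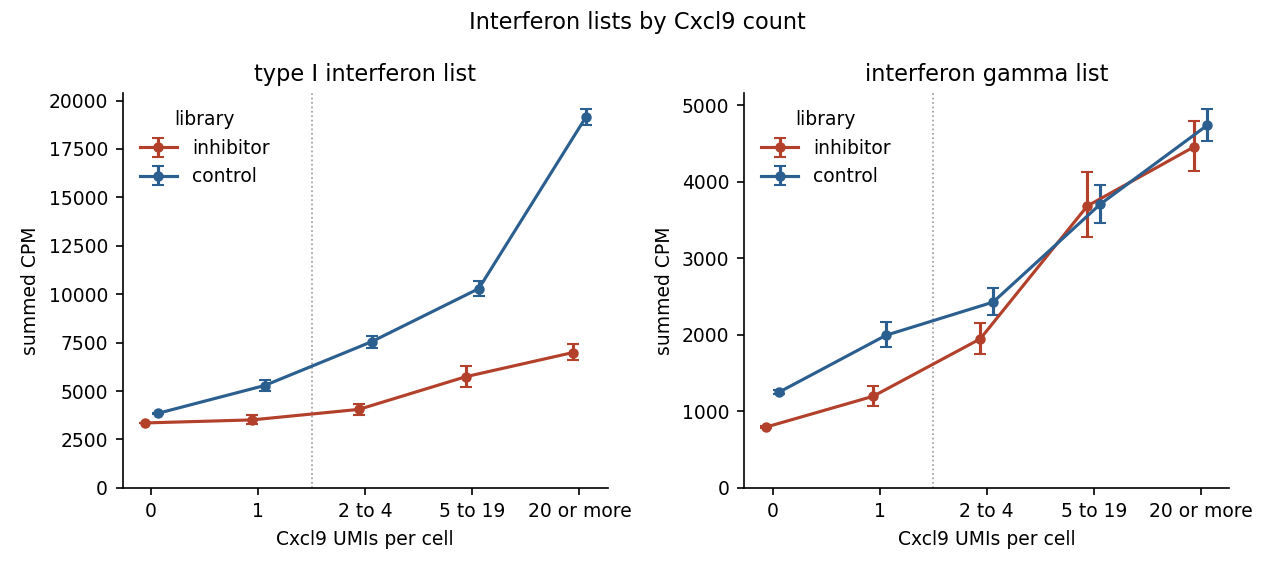
Summed CPM of each list is plotted by Cxcl9 UMIs per cell with exact Poisson 95% intervals, and the dotted line marks the limit of the rule. At 20 or more UMIs type I genes stand at 6989 CPM with inhibitor and 19141 CPM in control, and interferon gamma genes at 4462 and 4741 CPM.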

How the data were processed

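Cell suspensions from liver tumour regions were sequenced per the labels' protocols with a 10x 3′ kit, 1 library per group. The authors deposited whole-number UMI counts per gene and barcode, without normalization, for 31053 features, written by Cell Ranger 5.0.1 per the file headers. Cell Ranger, R 3.0, Seurat 3 and build mm9 were named in the submitters' processing notes. No column was left unmapped (0). Kept barcodes had at least 300 genes and at most 25% mitochondrial UMIs. Median depth was 6617 UMIs with inhibitor and 4085 in control. No normalization beyond CPM was made. UMIs were summed per library and population and given as CPM, with exact Poisson intervals, exact conditional binomial intervals for ratios and Clopper-Pearson intervals for shares (95%), which cover counting error only and not differences between mice or preparations. For ratios, populations with 0 UMIs of a gene were given 3 instead, over the population, and a gene was left out of a comparison where that floor exceeded the other population's level. Genes were compared at 30 or more UMIs over both populations and called at 2-fold, with no test.

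Named genes were the 12 highest and 12 lowest by the interval bound nearest to 0, plus any of the 317 genes in 21 lists. For selected cells against C1q macrophages without Cxcl9, the ranked genes had to be past 2-fold in both libraries. Between libraries, they had to be found in 10% of cells and be at least as high as in all other barcodes. The cells and lists were chosen with earlier results of these data known. The 4 list genes Cxcl11, Mx2, Ifi30 and Mnda were not analysed here, and a few named genes are not reported here. Doublets were scored against simulated ones at 0.8% per 1000 barcodes, kept in the main values and removed in an alternative. The ratio code was tested on simulated data. Tools were Python 3.11.15, numpy 2.4.6, pandas 2.3.3, scipy 1.17.1, scikit-learn 1.9.0 and matplotlib 3.10.9.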

Additional observations from a re-analysis of the deposited data

Results flagged for a closer look

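Fabp4, a fatty acid binding protein of macrophages and a relative of the inhibited FABP5, differed in opposite directions in the 2 libraries. Selected cells over C1q macrophages without Cxcl9 had a log2 ratio of -1.93 (interval -2.92 to -1.07) with inhibitor, from 12 and 115 UMIs at 27.9 and 106 CPM. In control the log2 ratio was 1.18 (0.85 to 1.5), from 123 and 237 UMIs at 125 and 55.4 CPM. With 1 library per group the difference between the libraries was not tested.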

How the results depend on the processing

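Of 153 summary values under other settings, 135 stayed (within 1.5-fold for counts and list medians, within the interval for shares), 18 moved further and 0 reversed. Counts of genes could not be labelled reversed. List medians, shares and single genes could be only where the main value was at least 2-fold either way. The log2 ratio of shares, -1.90, was -4.04 in cells with at least 2 C1q UMIs, -0.37 in those with 0 or 1, -2.81 as a share of cells meeting the rule apart from Cxcl9, and -4.40 after thinning each cell to 2000 UMIs (0.0467% and 0.985%). After thinning, the limit on Csf1r, Ms4a7 and C1q had to be met anew as well as that on Cxcl9. Genes past 2-fold against C1q macrophages without Cxcl9 numbered 609 with inhibitor, of 5224 measured, but 943 of 4218 with at least 2 C1q UMIs and 2359 without the limit of 30 UMIs (2223 of 9459 for cells with 0 or 1 C1q UMI, set against cells of that kind without Cxcl9), and in control 1140 and 2815 without that limit. Between libraries they numbered 881, but 472 with 0 or 1 C1q UMI and 3142 without the limit. Among cells with at least 2 C1q UMIs the type I median against C1q macrophages without Cxcl9 was 0.60 with inhibitor. Between libraries, list medians with at least 2 C1q UMIs were -2.16 (type I), -0.58 (MHC class II), 0.51 (monocyte) and -0.65 (microglia-like), those with 0 or 1 were -0.62 (type I) and 0.51 (monocyte), and that of MHC class II without the limit was -0.67.

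Of single genes 1225 values stayed, 324 moved and 12 reversed. Against C1q macrophages without Cxcl9, or cells without it with 0 or 1 C1q UMI where so marked, the log2 ratio with inhibitor was -1.69 for Cd274 and 0.18 for Ctsd with at least 2 C1q UMIs, and 0.98 for Fabp5 and 1.11 for Slc40a1 with 0 or 1. In control with 0 or 1 it was -5.92 for Clu, -1.80 for Cp, -4.15 for Hspb1 and -0.29 for Sparc. Between libraries Apoa2 had -2.92 without doublets and -0.78 with at least 2 C1q UMIs, Chil3 -0.081 with at least 2, and Plac8 -0.026 with 0 or 1. The cause was not tested.

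No paired analysis was possible because there was 1 library per group, and no replicate could be left out. The number of mice per library was not given, so animal, tumour and preparation cannot be told apart from the inhibitor. For selected cells under 20 hepatocyte marker UMIs, the share of secreted hepatocyte genes was divided by that over all barcodes of the library. The quotient was 0.116 with inhibitor and 0.0414 in control. Any hepatocytes among all barcodes enter the divisor, so these are not free RNA fractions to compare between libraries. As given above, 13 of 37 and 95 of 100 selected cells held any hepatocyte marker UMI. The part of free RNA in the differences was not tested. With 37 inhibitor cells, 6 of them with C1q, single cells decide many values.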
